A study of Mus musculus with 6 samples.

Results

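Microglia carry several genes for small proteins that cross the membrane as tetraspans without belonging to the true tetraspanin family, and 6 of them are described here: Tmem176a and Tmem176b, which lie head to head on chromosome 6, and Ms4a6b, Ms4a6c, Ms4a6d and Ms4a4c, which lie in the MS4A cluster on chromosome 19. They were taken by gene symbol from the 19225 genes listed in the deposited table, and all 6 were found. The group had been chosen on measured values of these same libraries, so the differences between genotypes are given as a description and support nothing.

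The libraries came from CD11b+ cells, a fraction enriched in microglia, isolated with magnetic beads from the brains of male mice that had not been stressed, aged 3 months per the labels, where the study's methods give a younger age for its experiments. The mice labelled Cnr1+/+ were C57BL6/J with the genotype wt/wt. Those labelled Cnr1-/- carried, on the same background per the study's methods, the tm1Zim allele in the d/d state, in which, per the study's methods, a neomycin cassette interrupts the coding part of the gene for the cannabinoid receptor CB1, in every cell of the body rather than in microglia alone. There were 3 libraries of each genotype, and the study's methods give 3 mice per genotype, so each library is taken as 1 mouse. Bead selection keeps every CD11b+ cell, so border macrophages, monocytes and neutrophils could pass with the microglia. In such bulk RNA a smaller number of expressing cells and less RNA per cell cannot be told apart.

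MS4A proteins are tetraspan proteins of immune cells; the best known is the B-cell antigen CD20, and the MS4A6 and MS4A4 genes are expressed in macrophages and microglia. The human MS4A4A and MS4A6A locus carries common variation associated with the risk of Alzheimer's disease, and MS4A4A has been linked to the level of soluble TREM2. TMEM176A and TMEM176B resemble the MS4A proteins in topology. They are found mainly in myeloid cells, where TMEM176B acts as a cation channel of intracellular vesicles and has been tied to antigen presentation and to restraint of the inflammasome.

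Levels are in cpm, reads of a gene per 1e+06 reads, scaled by the authors with trimmed means (TMM). The reads came from the 3′ ends of transcripts, so cpm was not divided by transcript length, and levels of different genes are set side by side on that 3′-tag scale alone. From the value of 1 read, each library held the equivalent of 7708793 to 10723822 reads. The listed genes made up 50.1%, 54.1% and 54.3% of the cpm total in the Cnr1+/+ libraries. In the Cnr1-/- libraries they made up 53.5%, 59.1% and 58.1%. Mitochondrial genes took 2.92% to 4.96%. The targeted gene was found in the libraries where it was to be missing: Cnr1 had 1.41, 1.21 and 1.79 cpm in the 3 Cnr1-/- libraries and 0 in each Cnr1+/+ library. The study states that CB1 is hardly expressed by microglia themselves, so 0 in the Cnr1+/+ libraries does not by itself go against the labels. The 3′ reads may lie outside the interrupted coding part and would then check nothing. Otherwise the values above 0 in the Cnr1-/- libraries go against the labels, and every direction refers to the libraries as labelled. Library Cnr1-/- replicate 2 stood apart, with 4067 cpm of summed neutrophil markers against 266 to 524 cpm in the other 5 libraries, and 2330 cpm of erythrocyte markers against 136 to 237 cpm.

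Sequences bear on these genes in 2 ways. The first concerns Ms4a6b and Ms4a6c, the 2 members whose start regions are alike: over 172 aligned bases of the 250 bases before their start sites, 148 were identical (86.0%). The bases before each start that lie outside every annotated exon are printed here, from the RefSeq promoter windows of GRCm38.p6, 5′ to 3′ on the plus strand, with the single match to the interferon response core GAAANNGAA in capitals. The Ms4a6b stretch is chr19:11518309-11518452, with its match 206 bases before the start site, and the Ms4a6c stretch is chr19:11469118-11469365, with its match 133 bases before the start site.
Ms4a6b: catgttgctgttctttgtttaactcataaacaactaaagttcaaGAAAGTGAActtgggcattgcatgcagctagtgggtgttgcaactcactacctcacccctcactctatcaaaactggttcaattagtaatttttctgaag
Ms4a6c: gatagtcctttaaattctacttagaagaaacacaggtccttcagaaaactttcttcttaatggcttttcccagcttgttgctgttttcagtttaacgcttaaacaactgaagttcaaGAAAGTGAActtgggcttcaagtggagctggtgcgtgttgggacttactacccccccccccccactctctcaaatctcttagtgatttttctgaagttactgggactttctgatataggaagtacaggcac

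The match sits in a run of 24 bases that both printed stretches share letter for letter, while the longest run shared by the whole windows, of 48 bases, lies elsewhere and does not hold it. Of the 32851 promoter windows of 300 bases in the reference set, 8.56% held this motif on either strand, so it is a letter match and not a measured site. Promoter windows were found for 5 of the 6 genes, not for Ms4a6d. The Ms4a4c window held no GAAANNGAA and a single GAGGAA, the core of ETS-family sites such as that of PU.1, a motif present in 28.3% of all windows. None of the 8 windows of these genes held the nuclear receptor site AGGTCA, which 16.3% of all windows held.

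The second set concerns the pair on chromosome 6. Tmem176a occupies chr6:48840919-48847071 on the plus strand and Tmem176b chr6:48833818-48841496 on the minus strand in GENCODE vM21 (GRCm38), and their spans overlap by 578 bases at the 5′ ends. Their outermost promoter windows share 219 bases, and both of the GAGGAA matches in the window of Tmem176a were the same places on the chromosome as both matches in the window of Tmem176b. The match nearer to Tmem176b lies partly within the annotated span of that gene. It also lies 9 bases past the start site of the inner Tmem176a window, and the inner Tmem176b windows held no match. This match is shown in capitals, read on the plus strand, where its letters are the reverse complement of the core, at chr6:48841480-48841509.
Tmem176b-Tmem176a: ccacccaggttcTTCCTCctgccagggctg

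Although the 2 genes overlap at their starts, their 3′ ends, from which the reads came, lie 13254 bases apart. Among the 50-base windows of the last 500 bases of their protein-coding transcripts, none of the 1670 of Tmem176a and none of the 962 of Tmem176b occurred in a transcript of any other gene. Reads of the pair could therefore be told apart by sequence.

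Tmem176b was the most abundant of the 6 genes, with a mean of 167 cpm over the 6 libraries and rank 362 among all listed genes. Its level was 168, 133 and 142 cpm in the Cnr1+/+ libraries and 196, 190 and 172 cpm in the Cnr1-/- libraries. All 3 Cnr1-/- values lay above all 3 Cnr1+/+ values, although the closest pair, 168 and 172 cpm, differed by less than the SD within either genotype. The Cnr1+/+ mean was 148 ± 18.1 cpm and the Cnr1-/- mean 186 ± 12.5 cpm (SD, n = 3 each), and the log2 fold change was 0.33 with an SE of 0.126. Fold changes and p came from limma, a linear model fitted across the 6659 genes with a mean of 10 cpm or more on the log2(cpm + 0.1) scale, and the p adjusted over all of these was 0.735.

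Its partner Tmem176a stood at 47.9, 41.5 and 49.4 cpm in the Cnr1+/+ libraries and at 62.8, 64.9 and 56.0 cpm in the Cnr1-/- libraries. Here too the groups did not overlap, with a gap between 49.4 and 56.0 cpm that exceeded the SD within either genotype. The Cnr1-/- mean of 61.2 ± 4.62 cpm was 1.32 times the Cnr1+/+ mean of 46.3 ± 4.20 cpm (SD, n = 3 each). The log2 fold change was 0.41 with an SE of 0.149, and the limma adjusted p was 0.702. The libraries held 369 to 696 reads of Tmem176a and 1295 to 2035 reads of Tmem176b, so that counting error was at most 5.21% and 2.78% of a value, below the spread between replicates.

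**Figure D1:**
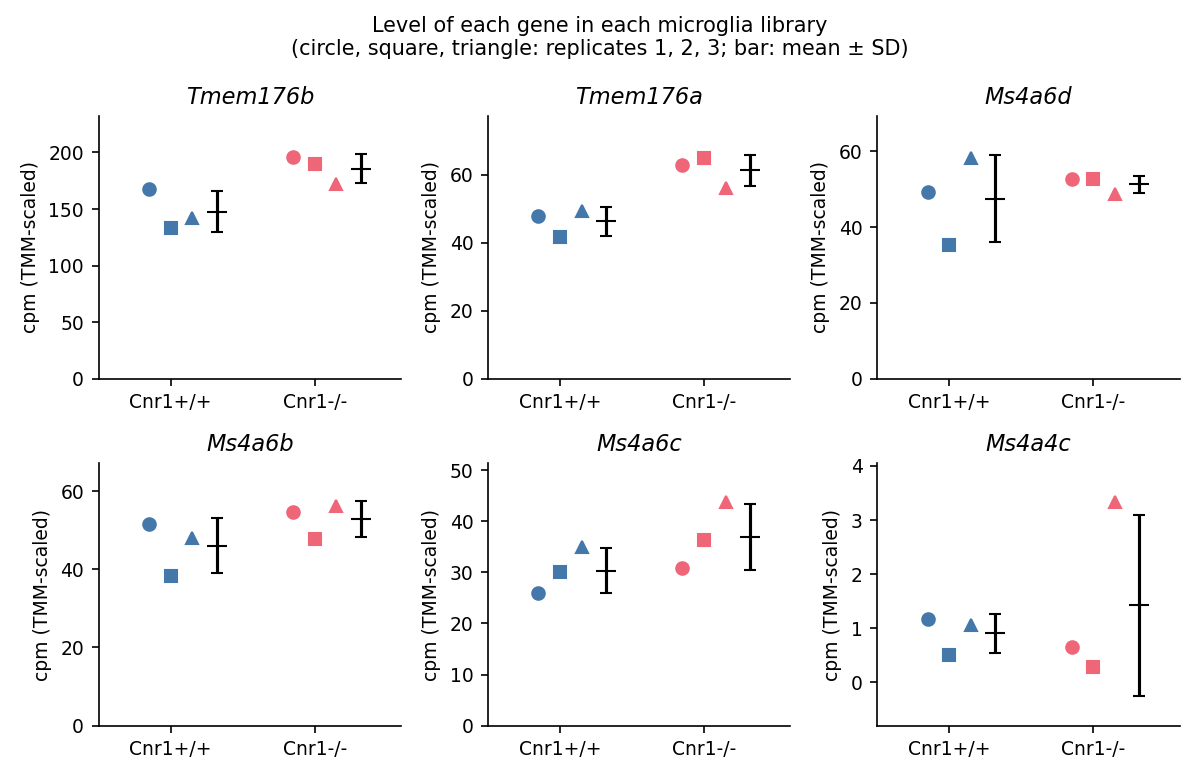
Level of each of the 6 genes in each library (vertical axis, TMM-scaled cpm; colours and horizontal positions, genotype; circle, square and triangle, replicates 1, 2 and 3; black bar, mean ± SD of 3 libraries). Tmem176a and Tmem176b show no overlap between genotypes, the 3 MS4A6 genes overlap, and Ms4a4c is near 0 except for 3.34 cpm in Cnr1-/- replicate 3.

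The MS4A6 genes form a family of close copies. Ms4a6d, on the minus strand at chr19:11586604-11604849, was measured at 49.2, 35.3 and 58.2 cpm in the Cnr1+/+ libraries and at 52.7, 52.6 and 48.7 cpm in the Cnr1-/- libraries. The Cnr1-/- values sat inside the range of the Cnr1+/+ values, with an SD of 2.31 cpm against 11.5 cpm. The log2 fold change was 0.14 with an SE of 0.169 (limma adjusted p = 0.945). Without Cnr1+/+ replicate 2, the library at 35.3 cpm, it was -0.06, without Cnr1+/+ replicate 3 it was 0.30, and under rescaling without mitochondrial genes it was 0.04.

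Ms4a6b, on the plus strand at chr19:11516512-11531256, stood at 51.7, 38.2 and 48.1 cpm in the Cnr1+/+ libraries and at 54.7, 47.8 and 56.2 cpm in the Cnr1-/- libraries. The groups overlapped, since the lowest Cnr1-/- library was below 2 of the 3 Cnr1+/+ libraries. The log2 fold change was 0.21 with an SE of 0.158 (limma adjusted p = 0.900). Without Cnr1+/+ replicate 2 it was 0.08, and it was 0.13, 0.11 and 0.11 under median centring, quantile normalization and rescaling without mitochondrial genes.

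Ms4a6c, on the plus strand at chr19:11469366-11482192, stood at 26.0, 30.0 and 34.9 cpm in the Cnr1+/+ libraries and at 30.9, 36.3 and 43.7 cpm in the Cnr1-/- libraries. These groups overlapped as well. The log2 fold change was 0.28 with an SE of 0.180 (limma adjusted p = 0.873). It was 0.15 without Cnr1-/- replicate 3, 0.18 without Cnr1+/+ replicate 1 and 0.18 under rescaling without mitochondrial genes.

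The values of Ms4a6b and Ms4a6c depend on how shared reads were assigned. The longest coding sequences of the 2 genes were identical at 86.4% of 641 aligned bases, and those of Ms4a6b and Ms4a6d at 82.2% of 714. At the 3′ ends, 13.7% of the 50-base windows of Ms4a6c and 1.22% of those of Ms4a6b also occurred in another gene, mostly in each other, while none of the 834 windows of Ms4a6d did. The authors counted with an expectation-maximisation step, which divides a read among the genes it matches. Divided by the value of 1 read, the levels of Tmem176a, Tmem176b, Ms4a6d and Ms4a4c came out as whole reads in all 6 libraries, within 0.05 of a read (largest distance 0.03, for Tmem176b). Those of Ms4a6b and of Ms4a6c came out whole in 0 of 6.

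The fractions of the 2 genes completed each other. In Cnr1+/+ replicate 1, for example, Ms4a6b held 398.52 reads and Ms4a6c 200.48, and the sum of the 2 genes was whole in 6 of 6 libraries, with no sum farther than 0.0029 of a read from a whole number. The sum does not depend on the split between them, and it was 77.7, 68.2 and 83.0 cpm in the Cnr1+/+ libraries and 85.5, 84.0 and 99.9 cpm in the Cnr1-/- libraries. The groups of sums did not overlap, although the closest libraries, at 83.0 and 84.0 cpm, lay nearer to each other than the SDs of 7.47 and 8.79 cpm. Of all genes tested, 8.85% were higher in Cnr1-/- without overlap. The sum itself was not fitted, so nothing is read from its groups. The ratio of Ms4a6b to Ms4a6c ranged from 1.27 to 1.99 over the 6 libraries, a CV of 20.1%, and both ends of this range were Cnr1+/+ libraries.

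Ms4a4c, on the plus strand at chr19:11404770-11427246, is known as an interferon-responsive gene of T cells and macrophages. It was barely present, at 1.17, 0.499 and 1.05 cpm in the Cnr1+/+ libraries and 0.650, 0.280 and 3.34 cpm in the Cnr1-/- libraries. These values rested on 3 to 28 reads, and counting error alone was 57.7% in the lowest library. With a mean of 1.16 cpm the gene did not pass the minimum mean of 10 cpm and was not tested. The library with the highest Ms4a4c, Cnr1-/- replicate 3, also had the highest summed level of 12 interferon-stimulated genes, 150 cpm against 71.2 to 113 cpm in the other 5. The library with the lowest Ms4a4c, Cnr1-/- replicate 2, was at 113 cpm, and with so few reads no relation between the 2 is read from these values. Of its 3′-end windows 11.1% also occurred in another gene, chiefly Ms4a4b.

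In the order of mean levels, Tmem176b at 167 cpm was followed by Tmem176a at 53.8, Ms4a6b at 49.4, Ms4a6d at 49.4, Ms4a6c at 33.6 and Ms4a4c at 1.16 cpm. Within the Cnr1+/+ libraries Ms4a6d, Tmem176a and Ms4a6b had means of 47.5, 46.3 and 46.0 cpm, closer together than the SD of any of them. In the Cnr1-/- libraries Tmem176a moved ahead of both, at 61.2 cpm against 52.9 for Ms4a6b and 51.3 for Ms4a6d. Cnr1+/+ replicate 2 was the lowest of the 6 libraries for Tmem176a, Tmem176b, Ms4a6b and Ms4a6d.

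Of the 6 genes 5 were tested, and all 5 had a positive log2 fold change, with a median of 0.28 against 0.084 over all genes tested, of which 68.45% were positive. Under median centring, quantile normalization and rescaling without mitochondrial genes the positive share of all genes was 52.03%, 49.68% and 46.33%, and the 5 genes remained positive in each. Tmem176a and Tmem176b had an unadjusted limma p under 0.05, that is 2 of 5, where 6.02% of all genes tested were called at this level and 5.09% were called and higher in Cnr1-/-. They were also the 2 genes without overlap between genotypes, where the share of all genes that were higher without overlap was 8.85%. None of the 5 had an adjusted p under 0.1. Since the group was chosen with this contrast in view, nothing is read from these counts.

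**Figure D2:**
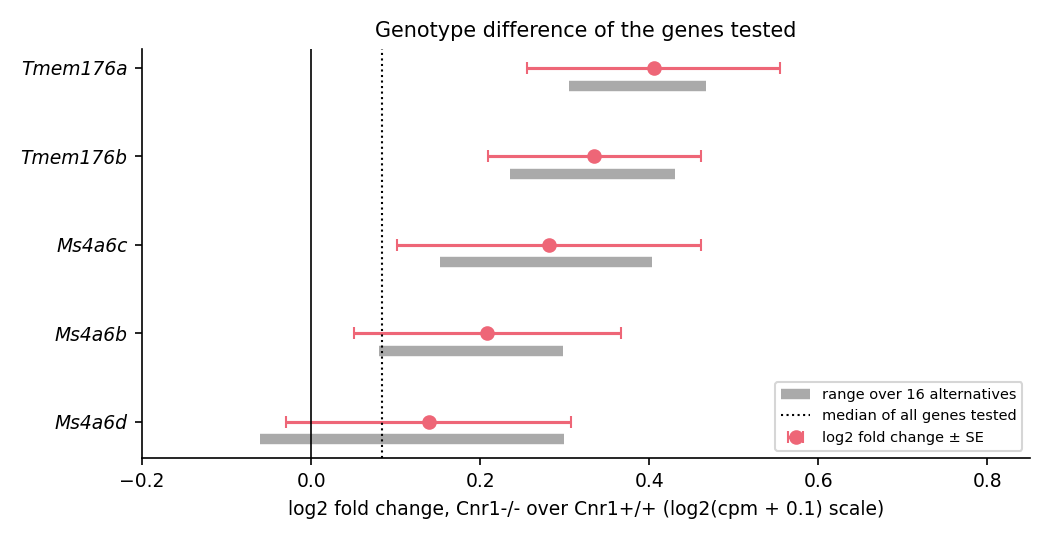
Log2 fold change of Cnr1-/- over Cnr1+/+ for the 5 genes tested (horizontal axis, log2(cpm + 0.1) scale; red points, estimate ± SE from limma with n = 3 per genotype; grey bars, lowest to highest value over 16 alternative settings and left-out libraries; dotted line, median of all genes tested). Ms4a6d alone has a grey bar that crosses 0, reaching -0.06.

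Both genes of the Tmem176 pair lost their call when Cnr1+/+ replicate 2 was left out, at log2 fold changes of 0.33 for Tmem176a and 0.26 for Tmem176b (limma adjusted p = 0.866 for both). Tmem176b alone lost it without Cnr1-/- replicate 1, at 0.30, and under quantile normalization, rescaling without mitochondrial genes and a variance model without a trend, at 0.25, 0.24 and 0.33. Without Cnr1-/- replicate 2, the library rich in neutrophil and erythrocyte RNA, both kept it at 0.36 and 0.32 (limma adjusted p = 0.999 for both).

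The ratio of Tmem176b to Tmem176a had an SD of 0.315 in the Cnr1+/+ libraries and 0.101 in the Cnr1-/- libraries. The ratio was 3.51, 3.20 and 2.88 in the Cnr1+/+ libraries and 3.12, 2.92 and 3.06 in the Cnr1-/- libraries, a CV of 7.30% over all 6. The library farthest from the mean ratio of 3.12 was Cnr1+/+ replicate 1. Over the 6 libraries Pearson's r was 0.91 (exact permutation p = 0.0181, two-sided; 0.271 after Benjamini-Hochberg adjustment over the 15 pairs of the 6 genes) and Spearman's rho was 0.886 (exact permutation p = 0.0333; adjusted, 0.5). Without the 2 libraries farthest from the median of Tmem176a, r was 0.79 (exact permutation p = 0.25), so the relation rests in part on them. The genotype difference that led to the choice of both genes is contained in r, and after the mean of each genotype was removed r was 0.68. Tmem176b was the 87th most similar of 6658 genes to Tmem176a, and Tmem176a the 47th most similar to Tmem176b.

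**Figure D3:**
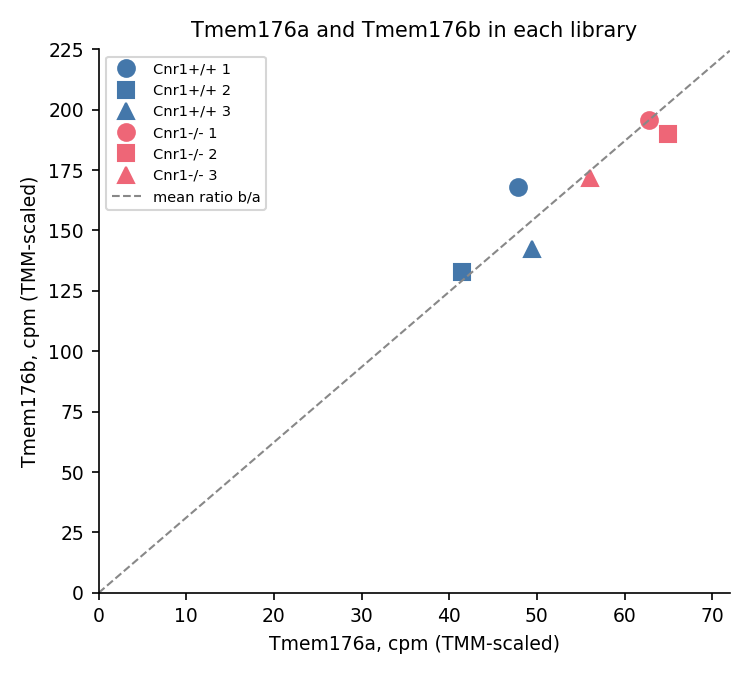
Tmem176b against Tmem176a in each library (both axes, TMM-scaled cpm from 0; blue, Cnr1+/+; red, Cnr1-/-; marker shape, replicate; dashed line, the mean ratio of 3.12). The 6 libraries lie along the line, with ratios from 2.88 to 3.51, and the 3 Cnr1-/- libraries occupy its upper end.

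Of the 15 pairs, 13 had r above 0, from -0.13 to 0.91, and none had an adjusted p under 0.05 by the exact permutation test. The single gene outside the group whose level followed a member most closely over the 6 libraries was Dgkz, a diacylglycerol kinase, for Tmem176a (r = 0.996), Imp3 for Ms4a6b (r = 0.994), AI480526 for Ms4a6c (r = 0.994), Trim8 for Ms4a6d (r = 0.984) and Gpalpp1 for Ms4a4c (r = 0.970). Each is the highest of 6654 values of r over 6 libraries, and between 1.16% and 8.55% of these genes exceeded an r of 0.8 with a given member.

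The rest of the MS4A family was close to absent. Of 14 further genes looked for, 5 were listed and none passed the minimum mean. Ms4a7, a marker of border and bone-marrow-derived macrophages, stood at 2.33, 7.88 and 5.89 cpm in the Cnr1+/+ libraries and at 4.98, 1.59 and 3.94 cpm in the Cnr1-/- libraries, on 17 to 79 reads. The groups overlapped, and without a minimum mean its log2 fold change was -0.58 with an SE of 0.485. Ms4a2, the beta chain of the high-affinity IgE receptor and a mast cell and basophil gene, was listed above 0 in Cnr1-/- replicate 2 alone, at 1.12 cpm. Ms4a4a, Ms4a4b and Ms4a8a stayed at or below 1.56 cpm, where 3 reads correspond to 0.28 to 0.389 cpm.

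Of the genes that start within 100 kb of a member, Gimap1, which encodes a GTPase of lymphocytes, was the 1 that passed the minimum mean. It lies 94764 bases from Tmem176b and stood at 20.1, 16.4 and 19.0 cpm in the Cnr1+/+ libraries and at 18.8, 17.7 and 20.5 cpm in the Cnr1-/- libraries. Its log2 fold change of 0.04 had an SE of 0.207 (limma adjusted p = 0.986). Within the 200 kb from Ms4a4c to Ms4a6d, 9 genes were listed, the MS4A members described here among them.

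Among the true tetraspanins, which organise other membrane proteins into microdomains, 23 of 27 were listed and 14 were tested. None had an unadjusted limma p under 0.05, 9 had a positive log2 fold change, and the median was 0.09. The most abundant were Cd81 at 549 cpm, Cd53 at 234 cpm and Cd63, a protein of late endosomes, at 206 cpm. On the 3′-tag scale Tmem176b, at 167 cpm, was below all 3.

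Since these genes are shared by many myeloid cells, marker lists of the cells that the fraction could hold were set beside them. Microglial identity genes summed to 15657 to 18105 cpm in the Cnr1+/+ libraries and to 16708 to 17810 cpm in the Cnr1-/- libraries, and none of 12 was called. Cx3cr1, the fractalkine receptor, led this list at 5075 cpm. Markers of border-associated macrophages summed to 315 to 438 cpm and 345 to 378 cpm, with Stab1 the most abundant of 8 at 241 cpm and most of each sum. Of the 8, 3 had a positive log2 fold change, and the median was -0.27 against 0.084 over all genes tested. Pf4 of this list was called lower in Cnr1-/-, by -0.48 on the log2 scale (limma adjusted p = 0.809).

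Monocyte markers summed to 42.8 to 51.9 cpm in the Cnr1+/+ libraries and to 37.0 to 121 cpm in the Cnr1-/- libraries, with Ccr2 the most abundant at 18.4 cpm. The 121 cpm came from Cnr1-/- replicate 2. Chil3, called higher, was at 68.4 cpm there and at 2.63 to 9.64 cpm in the other 5 libraries. In contrast S100a4 was called lower in Cnr1-/-, by -0.99 on the log2 scale (adjusted p from limma, 0.599). Dendritic cells are known for high Tmem176a and Tmem176b, and of 6 dendritic cell markers 5 were listed and none passed the minimum mean. Their sum was 4.28 to 11.5 cpm in the Cnr1+/+ libraries and 3.68 to 6.80 cpm in the Cnr1-/- libraries, the most abundant was Zbtb46 at 2.46 cpm, and Xcr1 never reached 1 cpm. Of 7 lymphocyte markers 2 were listed and none was tested, with a sum of at most 9.99 cpm, and the most abundant was Cd79b at 6.62 cpm.

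Neutrophil markers summed to 266 to 496 cpm in the Cnr1+/+ libraries and to 266 to 4067 cpm in the Cnr1-/- libraries, and 7 of 8 tested were called higher: S100a9, the most abundant, S100a8, Camp, Ltf, Lcn2, Retnlg and Mmp8. Of the erythrocyte markers the 4 tested, all haemoglobin genes, were called higher: Hba-a2, the most abundant, Hba-a1, Hbb-bs and Hbb-bt. Both lists were dominated by Cnr1-/- replicate 2, in which Tmem176a had its highest value, 64.9 cpm, and Tmem176b its second highest. The 2 other Cnr1-/- libraries, at 266 and 524 cpm of neutrophil markers, also lay above all Cnr1+/+ libraries for both genes. Over the 6 libraries the summed neutrophil markers had a Pearson's r of 0.66 with Tmem176a and 0.61 with Tmem176b on the log2 scale. The part of neutrophil RNA in these levels was not tested.

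Of 6 MHC class II genes tested, 4 were called in the direction opposite to the Tmem176 pair, 1 in the same direction, and 1, H2-DMb1, was at a log2 fold change of 0.01. The sum of the 6 was 281 to 298 cpm in the Cnr1+/+ libraries and 236 to 269 cpm in the Cnr1-/- libraries. Cd74, the invariant chain, H2-Aa, H2-Ab1 and H2-Eb1 were called lower in Cnr1-/-, with log2 fold changes from -0.58 to -0.39, and H2-DMa, which helps to load peptides and was the most abundant at 53.4 cpm, was called higher at 0.38 (limma adjusted p = 0.792). The lowest adjusted p of the 6 was 0.480 for Cd74. The part of these cell types and genes in the levels of the 6 genes was not tested.

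**Figure D4:**
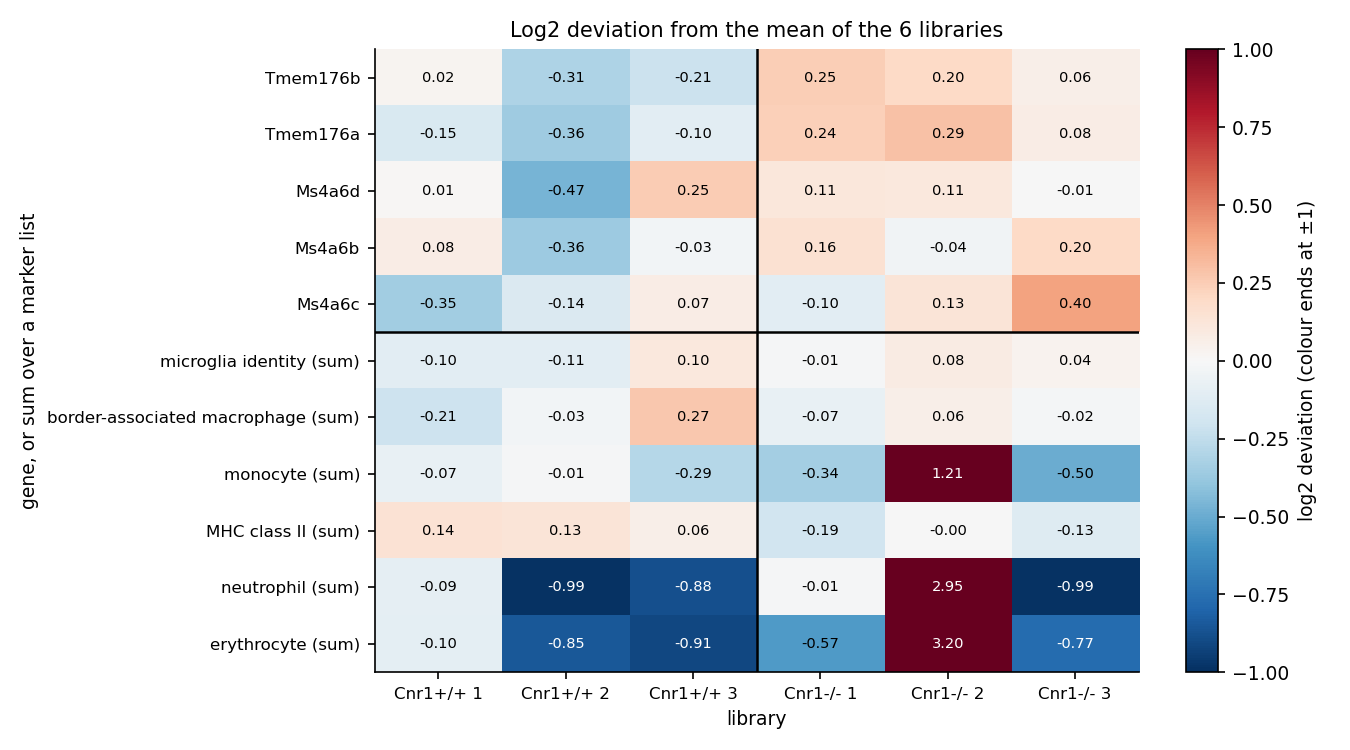
Log2 deviation from the mean of the 6 libraries for the 5 genes tested (upper rows) and for the summed cpm of 6 marker lists (lower rows), by library (columns; colour ends at ±1, printed values do not). Tmem176a ranges from -0.36 to 0.29 and MHC class II sums from -0.20 to 0.14, while the neutrophil and erythrocyte sums reach 2.95 and 3.20 in Cnr1-/- replicate 2.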

How the data were processed

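Expression was measured by 3′ mRNA sequencing of 6 libraries, 3 per genotype. The authors aligned 50-base single reads with STAR to mm10 in Partek Flow, counted them per gene by expectation-maximisation against Ensembl annotation, and deposited TMM-scaled CPM. Strand use in counting is not given in the sources used here. Only 85.6% to 87.5% of low values were whole reads, within 0.02 of a read plus 0.05% of the value, so no count test was run.

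The 6659 of 19225 genes whose mean reached 10 cpm were tested on log2(cpm + 0.1) with limma 3.58.1 (R 4.3.3; trended empirical Bayes, genotype as the only factor, Benjamini-Hochberg adjustment over all genes). The fit was tested on simulated data. A call is an unadjusted p under 0.05. The members and lists were chosen with earlier results of these data known. Named genes were the 6 members, other listed MS4A genes, the closest gene by Pearson's r, neighbours within 100 kb, the 3 most abundant tetraspanins, and, of each marker list, called genes and the most abundant; Xcr1 and H2-DMb1 were named after their values were seen, and 2 genes that the rule names are not reported here. Same-numbered replicates did not deviate together (r = -0.056, -0.032 and -0.031). Libraries with unlike numbers were as near to 0 (r from -0.004 to 0.040). These values show no pairing and, with 3 libraries per genotype, cannot exclude one. Correlations were tested over all 720 orders of the libraries. Deposited starts equalled GENCODE vM21 starts for 18730 of 18826 symbols. Sequence identity came from local alignment (Biopython 1.88; match 2, mismatch -3, gap opening -7, extension -2). Alternatives covered the pseudocount, the minimum mean, the scaling, the variance model, the replicate block and each library left out. Rescaling without mitochondrial genes set the summed cpm of all other listed genes equal in every library. Counting errors cover reads alone.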

Additional observations from a re-analysis of the deposited data

How the results depend on the processing

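All 16 alternatives kept the log2 fold changes of Tmem176a (0.31 to 0.47), Tmem176b (0.24 to 0.43), Ms4a6b (0.08 to 0.30) and Ms4a6c (0.15 to 0.40) positive. That of Ms4a6d was positive in 15 of 16 and was -0.0601 without Cnr1+/+ replicate 2; the cause was not tested. The unadjusted limma p of Tmem176a was under 0.05 in 15 of 16 alternatives and that of Tmem176b in 11 of 16. With 1 library left out their log2 fold changes ran from 0.33 to 0.47 and from 0.26 to 0.43, and that of Ms4a6d from -0.0601 to 0.30. The number of the 6 genes called was 1 in place of 2 with quantile normalization, with rescaling without mitochondrial genes and with empirical Bayes without a trend, Tmem176b being lost each time at log2 fold changes of 0.25, 0.24 and 0.33; leaving out 1 library gave 0 to 2. Over all genes, 401 calls became 993 without a minimum mean and 263 with a minimum mean of 20 cpm, since more and fewer genes were tested, and 251 to 600 with 1 library left out, the lowest without Cnr1-/- replicate 2. Of the calls 84.54% were higher in Cnr1-/-, against 71.3% without a minimum mean, 52.53% with median centring, 45.28% with quantile normalization and 40.34% with rescaling without mitochondrial genes; the median of all genes was 0.084, 0.071, 0.008, -0.001 and -0.015 in these fits. With replicate number as a block 421 genes were called, among them the same 2 members, and same-numbered libraries are not known to share more than a number. The r of Tmem176a and Tmem176b was 0.79 without the 2 libraries farthest from the median (exact permutation p = 0.25, n = 4). No other MS4A gene passed the minimum mean, so these have fitted values only in the fit without one. With 3 libraries per genotype a permutation test of 1 gene could not go below 0.1.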
